A study of Mus musculus with 3 samples.

Results

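Red pulp macrophages, the resident macrophages of the spleen that clear worn red blood cells and recycle their iron, were compared with splenic monocytes that already express the transcription factor Spic. The comparison was 1 array against 1 array out of 3 in the series, the log2 level in red pulp macrophages minus that in Spic-positive monocytes. Each gene was represented by its probe set with exactly 1 gene symbol and the highest mean over the 3 arrays, which gave 18193 genes. Levels under log2 5.02, the middle value of the non-control probe sets over all arrays, were treated as near background, and the 12207 genes above this floor on at least 1 of the 2 arrays were compared.

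All cells came from spleens of adult mice of the genotype Spic(igfp/+), in which 1 Spic allele carries a green fluorescent protein (GFP) reporter and the other allele is intact. The title of the series names heme as a regulator of how monocytes become macrophages that recycle iron. Monocytes were what remained after magnetic removal of cells bearing CD4, CD8 or B220, sorted as CD11b+ Ly6C+ and, for the population used here, GFP+, while macrophages were sorted as high for F4/80 and high for GFP. Whether macrophages also went through the magnetic removal is stated differently in the labels and the design. The third array, GFP-negative monocytes of the same sort, served to choose probe sets and to set the floor, and its levels are given beside some genes. The labels give neither the age beyond adult, nor the sex, nor how many mice went into a sample.

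Spic is an Ets family factor related to PU.1 that red pulp macrophages need for their development, and heme induces it in monocytes by removing the repressor BACH1. Red pulp macrophages take up aged red cells whole and hemoglobin through receptors such as CD163, open the heme ring with heme oxygenase 1 and return the iron to plasma through ferroportin. Monocytes of the Ly6C-high kind circulate, follow the chemokine CCL2 through its receptor CCR2, and can become macrophages or antigen-presenting cells in tissue.

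With 1 array per group there was no spread between animals, so no difference could be tested and none carries an error. Differences are described by their size, on the log2 scale, where 1 is 2-fold and 2 is 4-fold. In these sorted populations a larger share of a contributing cell type and more RNA per cell cannot be told apart. Sex-linked transcripts, given below, also differed between the arrays, so differences of sex or animal cannot be told apart from those of cell type.

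Of the sort markers, Spic and F4/80 followed the labels, and the Ly6C genes were not analysed here. Spic measured log2 9.22 in Spic-positive monocytes and 12.23 in macrophages, a difference of 3.01, against 5.66 in Spic-negative monocytes. Its other probe set gave a difference of 2.18. Adgre1, which encodes F4/80, measured 10.67 and 12.50, and Itgam, the CD11b integrin chain, 7.38 and 5.23. The Spic-positive array stood apart in its added controls: all 18 hybridization controls were brighter there than on the macrophage array, which differed from it by a median of log2 -2.10 and from the Spic-negative array by 0.07. For the 9 poly(A) control probe sets at the 3′ end, the Spic-positive array exceeded the Spic-negative one by 1.22 and the macrophage array differed from it by -1.24. Gapdh control probe sets at the 3′ end exceeded those at the 5′ end by 0.48, 2.25 and 1.61 on the Spic-negative, Spic-positive and macrophage arrays, and those of beta-actin by 0.74, 0.57 and 1.13, so the order of the arrays used here was opposite for these genes. The part of these differences in the results was not tested.

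**Figure D1:**
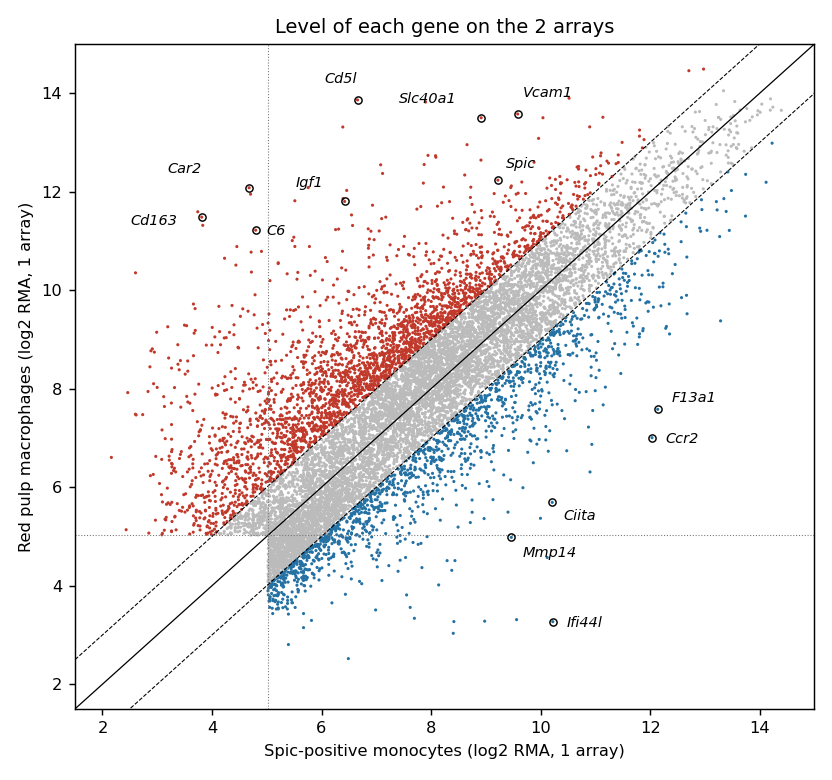
Log2 RMA level of each of the 12207 genes compared, on the Spic-positive monocyte array (x axis) and the red pulp macrophage array (y axis). Red points were at least 2-fold higher in macrophages (2722 genes) and blue points at least 2-fold lower (1425), dashed lines mark 2-fold and dotted lines the floor at log2 5.02, and circled genes such as Cd5l (6.66 and 13.86) and Ciita (10.21 and 5.69) lie far from the diagonal.

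More genes were higher than lower in macrophages, by a margin that moved with the normalization. Of the 12207 genes compared, 2722 (22.3%) were at least 2-fold higher in macrophages and 1425 (11.7%) at least 2-fold lower, and the median difference of all of them was 0.11. These are the shares to set beside the counts of the gene lists below, taken over the members compared. At 4-fold, 893 genes (7.32%) were higher and 251 (2.06%) lower. Of the genes compared, 10373 lay above the floor on both arrays, 778 only in macrophages and 1056 only in Spic-positive monocytes, and differences against a level under the floor depend on the background. For genes named with their values, such a difference is given below as at least the distance of the brighter array to the floor. Counts of genes use the measured levels, and with levels under the floor raised to it 2550 genes were higher and 1172 lower. Genes past 2-fold had 2916 other bright enough probe sets, of which 80.6% shared the direction and 49.9% were past 2-fold too.

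Both macrophage genes chosen to mark the comparison were far higher in macrophages, and both monocyte-side genes far lower. Cd5l encodes a secreted scavenger receptor family protein that supports macrophage survival. Its log2 level was 4.43 without Spic, 6.66 in the Spic-positive cells and 13.86 in macrophages, 148-fold above the second. Cd163, the receptor for hemoglobin bound to haptoglobin, measured 4.49, 3.81 and 11.48 in the same order, so both monocyte arrays lay under the floor and macrophages were at least 88.1-fold above it.

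Ciita, the class II transactivator that switches on the MHC class II genes, measured 8.43, 10.21 and 5.69, highest in Spic-positive monocytes and 22.9-fold lower in macrophages. The second of its 3 probe sets differed by -1.65, and the third measured 5.47 in Spic-positive monocytes but 4.06 in macrophages. Mmp14, a membrane-bound protease that cuts collagen and activates other proteases, measured 5.63, 9.46 and 4.98, so it was bright only in Spic-positive monocytes and at least 21.7-fold lower in macrophages. Its other 2 probe sets were dim and differed by -1.57 and -0.63. These 4 genes were chosen with the results of these arrays known, and their differences describe the arrays.

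Of 16 red pulp macrophage markers, all measured above the floor in macrophages, 15 exceeded 2-fold upwards, none downwards, and the median difference was 3.27, against 22.3% and a median of 0.11 over all genes. The list holds Spic and Adgre1, which follow the sort gates, and Cd5l and Cd163, chosen with these arrays known. Its count therefore describes the arrays and is no separate support. Vcam1, an adhesion receptor that red pulp macrophages carry, measured 9.58 in the Spic-positive cells and 13.58 in macrophages, and lay under the floor in Spic-negative monocytes. Mertk, a receptor for dying cells, measured 8.09 and 12.70, and Axl, its relative, differed by 3.07. The lipid-sensing nuclear receptor genes Pparg and Nr1h3 (liver X receptor alpha) differed by 3.42 and 2.10.

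Cd163 and C6 were the members under the floor in Spic-positive monocytes. C6, a component of the complement attack complex, measured 4.80 in Spic-positive monocytes and 11.22 in macrophages, at least 73.4-fold higher. Fcna, a ficolin that binds sugars on microbes, measured 7.90 and 13.82. Siglec1 (CD169), a marker of marginal metallophilic macrophages, was the 1 member under 2-fold, at 6.41 and 6.09. Il18 (1.60) and Treml4 (1.75) were at the lower end of those past 2-fold.

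**Figure D2:**
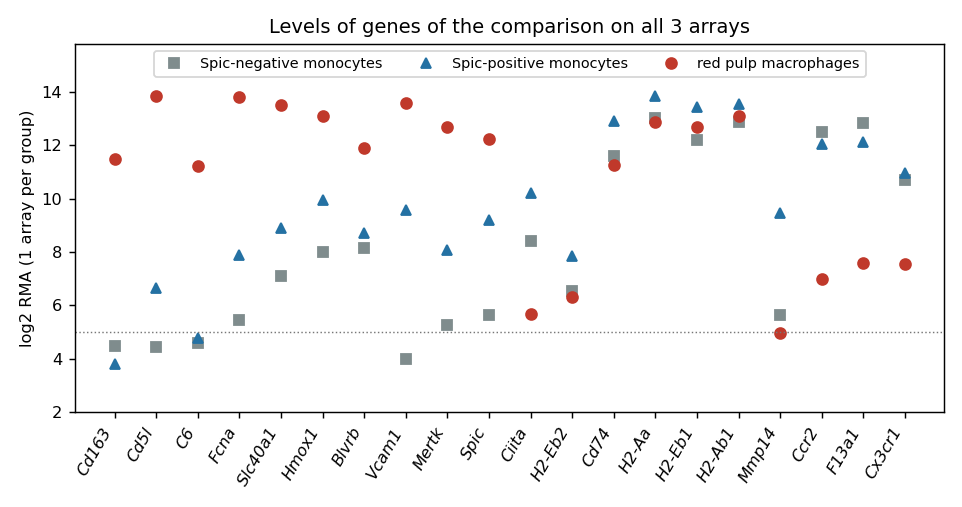
Log2 RMA level of 20 genes on the 3 arrays: grey squares Spic-negative monocytes, blue triangles Spic-positive monocytes, red circles red pulp macrophages, with the floor as a dotted line. For the 10 genes from Cd163 to Spic the macrophage array was highest, Ciita and Mmp14 were highest in Spic-positive monocytes, the class II genes H2-Aa, H2-Eb1 and H2-Ab1 lay between log2 12.22 and 13.85 on all arrays, and Ccr2, F13a1 and Cx3cr1 were high in both monocyte populations.

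Genes for opening heme were higher in macrophages. Hmox1, heme oxygenase 1, measured log2 9.96 in Spic-positive monocytes and 13.08 in macrophages, 8.69-fold higher. Blvrb and Blvra, which reduce the biliverdin it makes, measured 8.72 and 11.88, and 10.17 and 12.28. Hmox2, the constitutive heme oxygenase, differed by 1.10. All 4 genes of heme breakdown thus exceeded 2-fold, and their median was 2.62.

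Of 5 heme uptake and transport genes, 3 (Cd163 among them) were higher, 1 was lower and Flvcr2 lay under the floor on both arrays. The heme transporter gene Slc48a1, which moves heme out of the phagolysosome, measured 8.34 and 10.40, and Slc46a1 differed by 1.19. Lrp1, which takes up hemopexin with its heme, differed by -1.25 on its brighter probe set and by 1.85 on the other, so its direction is uncertain.

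On the export side, Slc40a1 (ferroportin) measured 7.09 without Spic, 8.91 in the Spic-positive cells and 13.50 in macrophages, and the last pair differed by 4.59. Its second probe set differed by 5.44. The ferroxidase gene Cp differed by 2.08 and the heme and urate exporter gene Abcg2 by 2.75. The heme exporter gene Flvcr1 differed by -1.08, and its other probe set by 0.38. Heph, another ferroxidase gene, lay under the floor on both arrays.

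Iron uptake genes above the floor were higher or differed by less than 2-fold. The transferrin receptor gene Tfrc measured 7.50 and 10.89, and the metal importer gene Slc39a8 measured 3.40 and 8.38, at least 10.3-fold higher. Tfr2, a sensor of transferrin iron, differed by 1.92, and the phagosomal iron transporter gene Slc11a1 (NRAMP1) by 1.11. Of 9 genes in this list, 4 were at least 2-fold higher and none lower, 4 were under 2-fold and Steap4 lay under the floor on both arrays.

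Iron storage and sensing genes showed a median of -0.11, with 3 of 8 measured members higher and 1 lower. Fth1, the ferritin heavy chain, measured 13.55 and 13.44. Ncoa4, the receptor that delivers ferritin to the lysosome, differed by 1.53 and Hfe, a regulator of iron sensing, by 1.82. Fbxl5, the ubiquitin ligase subunit that removes iron regulatory protein 2, differed by -1.49 and Ireb2, which encodes that protein, by -0.82, under 2-fold. The iron regulatory protein 1 gene Aco1 was higher by 1.42.

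BACH1 represses Hmox1, ferroportin, ferritin and glutathione genes, and NRF2 activates many of them. Bach1 itself differed by -1.21 and Nfe2l2, which encodes NRF2, by -1.02. Among 13 bright enough members of this pathway, 3 exceeded 2-fold upwards, 4 downwards and 6 stayed under 2-fold, with a median of -0.20. Higher were Sqstm1 (p62, 1.98), Maff (1.42) and the sulfiredoxin gene Srxn1 (1.39, with a further probe set at -0.24). The glutathione reductase gene Gsr measured 11.35 and 8.92, a difference of -2.44. The glutathione synthesis genes Gclm and Gclc differed by -0.20 and -0.13, with other probe sets at 1.86 and 0.28. Txnrd1 differed by -1.21, with another probe set at 2.90, and the other of Sqstm1 differed by 0.125. Heme breakdown genes were thus higher on the macrophage array, while 3 of 13 members of this list were (23.1%, near the 22.3% of all genes). The list mixes regulators with targets and leaves out Hmox1 and Slc40a1, and its median was 0.08 with the mean of the probe sets.

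Erythroid transcripts were much brighter on the macrophage array, and red cell precursors also express several of the iron genes. Of 24 erythroid markers 18 had a probe set with 1 symbol, and 16 of these lay above the floor on the macrophage array against 9 in Spic-positive monocytes. At least 2-fold higher were 14 of the 18, with none lower. The 14 were 87.5% of the 16 compared, against 22.3% of all genes. The summed level of the list, as antilog values, was 17849 in macrophages and 1256 in Spic-positive monocytes. Slc4a1, the anion exchanger of the red cell membrane, measured 3.83 and 11.32 (at least 78.5-fold). The erythroid transcription factor gene Klf1 measured 4.52 and 9.47, and Hemgn 2.60 and 10.35. The 1 alpha-globin probe set above the floor, for Hba-a2, differed by 1.60. Beta-globin was not analysed here.

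Tfrc, Epor (the erythropoietin receptor, 3.39) and Alas2 belong to that list as well. Of 8 measured genes of heme synthesis 5 were higher and 1 lower. Further probe sets went the other way for Uros (1.97, another at -0.27), Fech (2.11, others down to -1.22) and the lower one, Ppox (-1.11, others up to 0.63). Alas2, the erythroid form of the first enzyme, measured 5.51 and 10.89. Alad, the second enzyme, measured 5.88 and 9.97, with another probe set differing by 0.18. Alas1, the form of other cells, differed by 0.41, with another probe set at -0.43. The part of erythroid RNA in the iron, heme synthesis and cell cycle differences was not tested.

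Cell cycle genes were higher as a group on the same array: 28 of 31 measured members by at least 2-fold and none lower. The 28 were 93.3% of the 30 compared, against 22.3% of all genes. Of the others 2 were under 2-fold and Tyms lay under the floor on both arrays. The median was 1.96. The proliferation marker Mki67 measured 8.66 and 11.43, Cdc20, an activator of chromosome separation, 7.19 and 10.67, and the replication helicase gene Mcm5 7.59 and 10.73. The thymidine kinase gene Tk1 measured 4.32 and 9.14, at least 17.4-fold higher. The smallest differences past 2-fold were those of the replication clamp gene Pcna (1.01) and the mitotic kinase gene Cdk1 (1.03).

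**Figure D3:**
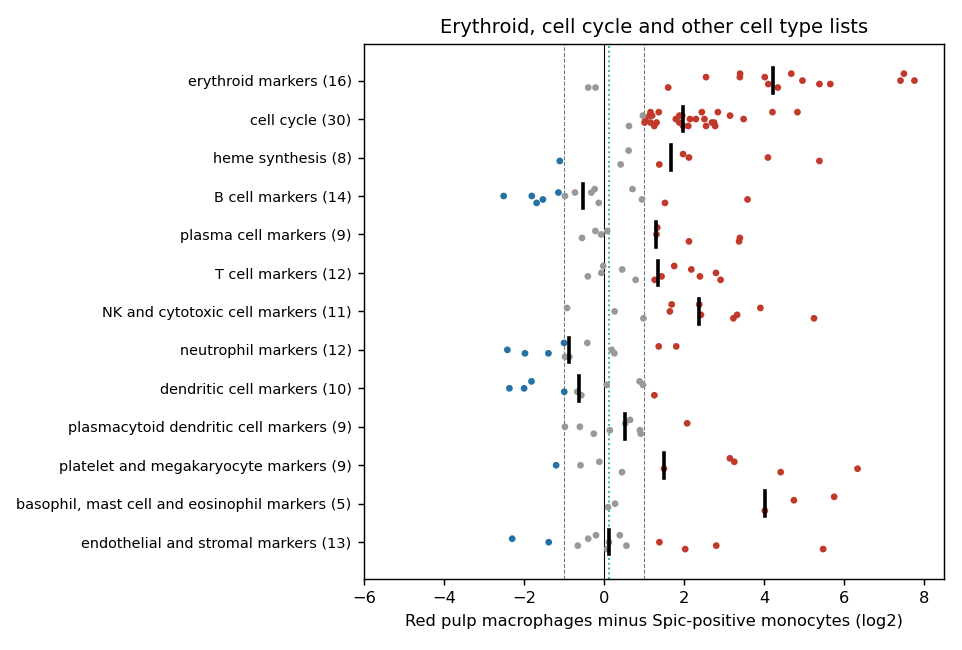
Each point is the difference (macrophages minus Spic-positive monocytes, log2) of 1 gene of the list named on the y axis, with the number compared in parentheses; red and blue mark at least 2-fold higher and lower, black bars are list medians, dashed lines 2-fold and the green dotted line the median of all genes (0.11). Erythroid, cell cycle, cytotoxic cell and basophil or eosinophil lists lie mostly to the right, and B cell, neutrophil and dendritic cell lists have medians left of 0. Genes under the floor on both arrays are not drawn, 7 of them in the basophil or eosinophil list. Genes under it only in Spic-positive monocytes entered through the macrophage array, which moves lists to the right.

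Complement genes made by macrophages were higher. The chains of C1q, which binds dying cells and immune complexes, were already present in Spic-positive monocytes: C1qa measured log2 4.35, 8.66 and 12.96 in Spic-negative monocytes, Spic-positive monocytes and macrophages, and C1qb and C1qc differed by 3.46 and 4.79 between the latter arrays. C2, part of the classical pathway convertase, differed by 3.28. Cfb, factor B of the alternative pathway, went the other way, at 9.83 and 7.38. Of 8 measured components 6 were higher, 1 lower, and Hc (C5) lay under the floor on both arrays. Among the higher ones, Cfp differed by 3.73, with another probe set at -0.57.

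Among 9 receptors and regulators of complement, 4 were higher and 3 lower. Vsig4, the C3b receptor of tissue macrophages, measured 4.14 and 9.16, at least 17.6-fold higher. Cd55 and Cd59a, which protect cells from complement, differed by 2.05 and 1.91. The integrin receptor chains Itgam and Itgax differed by -2.14 and -1.91, and C5ar1, the anaphylatoxin receptor, was at least 2.87-fold lower.

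Receptors for dying cells were mostly higher, with 8 of 14 past 2-fold and 1 lower (Lrp1, with discordant probe sets). The higher ones were 57.1%, against 22.3% of all genes, and the median of the list was 1.41. Among the higher ones, Itgb3 (1.49) had another probe set at -0.44. Stab2, a scavenger receptor that binds phosphatidylserine and hyaluronan, measured 6.39 and 11.86. Timd4, which binds phosphatidylserine, measured 6.64 and 9.62, and Cd300lf differed by 2.31. The integrin chain gene Itgb5 differed by 2.24. Stab1 (0.75) and Tyro3 (-0.73) were under 2-fold.

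The soluble bridges did not follow in 1 direction. Gas6, the ligand of Mertk and Axl, measured 5.03 and 7.89, while Pros1, the other ligand, differed by -0.66 and Mfge8 by -0.07. Thbs1, thrombospondin 1, measured 10.64 and 7.98. Of 9 bridge and signalling genes above the floor 2 were higher (22.2%, near the 22.3% of all genes) and 3 lower.

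Scavenger receptors that bind modified proteins and lipids were split. Mrc1, the mannose receptor, measured 7.08 and 12.55, and Marco 8.58 and 11.38, whereas Msr1, the class A scavenger receptor, differed by -1.81 and Olr1 by -1.08. Cd68 and Scarb2 differed by 0.36 and 0.37.

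In lipid handling, 11 of 21 genes above the floor were higher and 1, Ppard (at least 2.78-fold), lower, with a median of 1.09. The fatty acid carrier gene Fabp4 measured 6.86 and 10.85, the apolipoprotein gene Apoe 10.52 and 13.90, and the cholesterol exporter gene Abca1 8.47 and 11.14. Abcg1, another exporter and a target of liver X receptors, differed by 0.95 and Mylip by 0.74, both under 2-fold. Sterol synthesis genes differed little: 4 of 17 measured members were higher (23.5%, near the 22.3% of all genes) and none lower, with a median of 0.39.

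**Figure D4:**
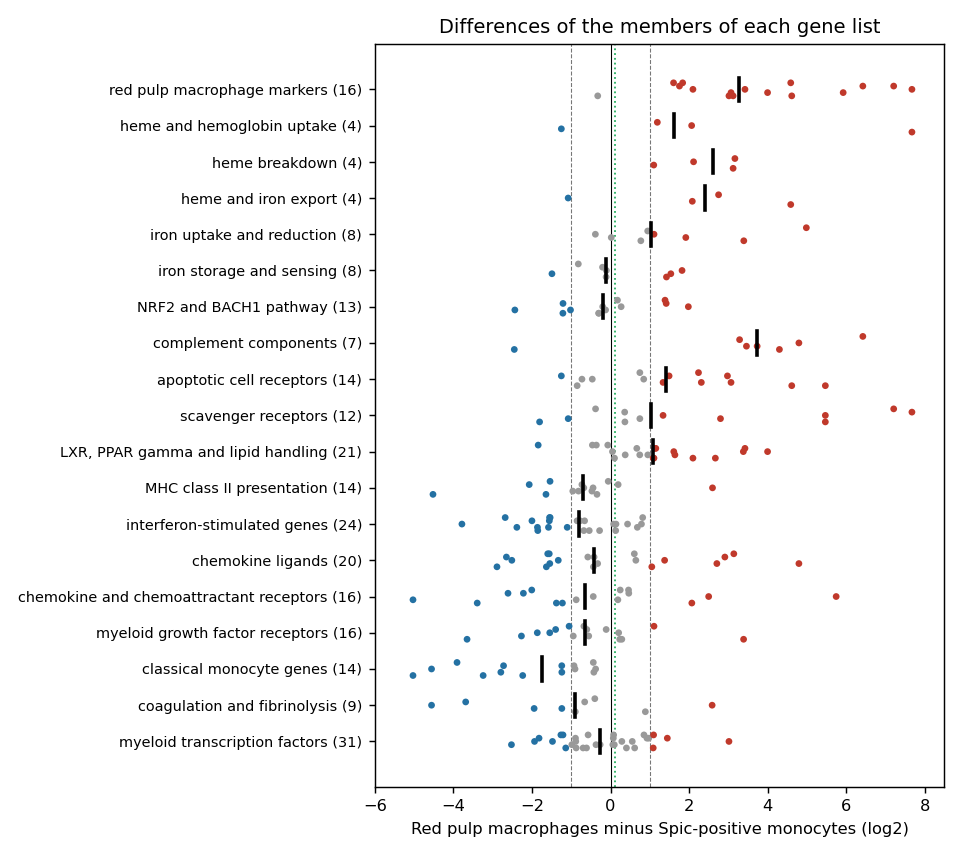
Each point is the difference (macrophages minus Spic-positive monocytes, log2) of 1 gene of the list named on the y axis, with the number compared in parentheses; red and blue mark at least 2-fold higher and lower, black bars are list medians, dashed lines 2-fold and the green dotted line the median of all genes (0.11). The lists of macrophage markers, heme breakdown, export and complement lie to the right (medians from 2.42 to 3.73), and classical monocyte genes lie furthest left (median -1.74).

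MHC class II genes present antigen to CD4 T cells, and the CIITA protein drives them without touching DNA itself, by joining the RFX, CREB and NF-Y factors on the X and Y boxes of their promoters. The Y box, an inverted CCAAT box, holds the NF-Y motif, searched here as GATTGG. In the RefSeq promoters (GRCm38.p6), 8 of the 9 class II genes of the list had an entry, and 7 of these 8 held GATTGG on either strand in the 150 bases before the start, against 10.9% of 32851 promoters of all genes. Promoters of 4 of them are shown, to set this element beside transcripts that ranged from 2.91-fold lower (H2-Eb2) to nearly level (H2-Oa). The 150 bases before the start are written 5′ to 3′ on the gene's strand, with GATTGG or its reverse complement in capitals.
H2-Aa, chr17:34287824-34287973, minus strand: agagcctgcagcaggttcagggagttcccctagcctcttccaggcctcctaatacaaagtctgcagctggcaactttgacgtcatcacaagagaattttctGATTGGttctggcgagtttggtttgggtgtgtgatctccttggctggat
H2-Eb1, chr17:34305717-34305866, plus strand: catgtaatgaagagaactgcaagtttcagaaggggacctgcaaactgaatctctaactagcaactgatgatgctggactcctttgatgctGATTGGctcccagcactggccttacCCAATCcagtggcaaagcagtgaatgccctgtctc
H2-Eb2, chr17:34325525-34325674, plus strand: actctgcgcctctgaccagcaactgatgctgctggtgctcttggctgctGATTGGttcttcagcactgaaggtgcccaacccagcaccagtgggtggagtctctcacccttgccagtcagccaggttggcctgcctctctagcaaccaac
H2-Oa, chr17:34092229-34092378, plus strand: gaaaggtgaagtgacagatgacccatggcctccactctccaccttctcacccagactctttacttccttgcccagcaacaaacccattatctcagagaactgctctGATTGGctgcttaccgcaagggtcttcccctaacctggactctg

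The motif lies 49, 60, 101 and 44 bases before the start of H2-Aa, H2-Eb1, H2-Eb2 and H2-Oa. A match describes the letters and not a bound site.

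The brightest Ciita probe set was 22.9-fold lower in macrophages, more than any class II gene, but its second probe set (-1.65) differed about as much as Cd74 (-1.64) and H2-Eb2 (-1.54). H2-Aa, the alpha chain of I-A, had log2 levels of 13.02 without Spic, 13.85 in the Spic-positive cells and 12.89 in macrophages. H2-Eb1 measured 12.22, 13.43 and 12.70, and H2-Ab1 differed by -0.45 between the latter arrays. The further probe sets of H2-Aa differed by up to -1.91 and those of H2-Ab1 by up to -1.29. Past 2-fold were Cd74, the invariant chain, at 12.91 and 11.26, and H2-Eb2, at 7.87 and 6.33. H2-Oa and H2-Ob, which temper peptide loading, differed by 0.19 and -0.06.

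Of 14 presentation genes measured, 4 were lower and 1 higher. The higher one was the costimulatory gene Cd86, at 8.64 and 11.23, whereas Cd40 differed by -2.07 and Cd80 by -0.82. Among the 8 factors of the promoter complex, only Ciita passed 2-fold. Creb1, Nfya, Rfxap and Nfyc differed by -0.97, -0.80, -0.17 and -0.15, and Rfx5, Rfxank and Nfyb by 0.43, 0.14 and 0.05, with other probe sets of Nfyb and Creb1 reaching 1.25 and 0.36. B cell markers, whose cells also carry class II, were lower by at least 2-fold in 5 of 14 measured members and higher in 2, with a median of -0.53, and 4 were lower with levels under the floor raised to it. The summed level of the list was 27259 in macrophages and 11099 in Spic-positive monocytes, and 4247 and 3049 without Ighm, which plasma cells also express. The sum without Ighm still holds the other higher member, Bank1, at 7.51 in Spic-positive monocytes and 11.09 in macrophages. Cr2, the complement receptor 2 gene, measured 8.08 in the Spic-positive cells and 5.56 in macrophages, and Ms4a1 (CD20) 9.53 and 7.72. The part of B cell RNA in the class II differences was not tested.

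Interferon-stimulated genes were lower in macrophages where they differed: 11 of 24 by at least 2-fold and none higher, with a median of -0.81. The 11 were 45.8%, against 11.7% of all genes lower. Oas3, an antiviral sensor of double-stranded RNA, measured 8.29 and 4.51, at least 9.65-fold lower, Oasl2 measured 9.88 and 7.20, and the nucleic acid sensor gene Zbp1 9.81 and 7.42. The antiviral GTPase gene Mx1 measured 10.24 and 8.24, and the interferon regulatory factor gene Irf7 differed by -1.58. Others did not follow: Irf1 differed by 0.79, Ifih1 by 0.82 and Ifit3 by 0.08. The interferon gamma receptor chain gene Ifngr2 measured 10.87 and 7.22 on its brighter probe set and differed by -0.92 on the other, and Ifngr1, the ligand-binding chain, differed by -1.06.

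Chemokine ligands differed in both directions, with 30% of the 20 compared higher and 40% lower. The 8 that were at least 2-fold lower were Ccl2, Ccl5, Ccl9, Ccl6, Ccl3, Ccl4, Cxcl9 and Cxcl10, which draw monocytes, T cells and other leukocytes. Ccl5 measured 6.87, 11.87 and 9.22 in Spic-negative monocytes, Spic-positive monocytes and macrophages, and Ccl2, the ligand of CCR2, measured 10.22, 10.83 and 7.94. The 6 that were higher included Cxcl1, which draws neutrophils, at 6.93 and 11.73, Cxcl3 (at least 2.91-fold), Cxcl12 (2.71) and the B cell chemokine gene Cxcl13 (1.38), while Cxcl2, another neutrophil chemokine gene, differed by 0.64. Pf4 (3.14) was higher too, and is also a platelet marker.

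Of 16 chemoattractant receptor genes above the floor, 7 were lower, 3 higher and 6 under 2-fold. Ccr2 measured 12.51 and 12.03 in the monocyte populations and was 32.6-fold lower in macrophages than in the second, and its 4 probe sets differed by -5.03 to -3.72. Cx3cr1, the fractalkine receptor, measured 10.95 and 7.56, Cxcr4 11.98 and 9.76, and Ccr7, which guides cells to lymphoid tissue, 9.90 and 7.90. The sphingosine phosphate receptor gene S1pr1 measured 6.44 and 3.83, at least 2.66-fold lower. Ccr3 (at least 19.1-fold), Cxcr3 (2.50) and Ccr9 (2.07) were higher.

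Cytokine genes went both ways, with 10 of 24 above the floor higher (41.7%) and 6 lower (25%). With levels under the floor raised to it 5 were lower. Igf1, a growth factor that tissue macrophages make, measured 6.42 and 11.80, and Il10, which restrains inflammation, 5.21 and 10.56. Il1a differed by 3.53, and Bmp2 was at least 9.85-fold higher. Lower were Il1rn, the interleukin 1 receptor antagonist, at 9.87 and 6.50, Osm (-1.62), Tgfb1 (-1.43) and Il1b, at 13.74 and 12.35.

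Several growth factor receptor genes were lower, whereas Csf1r, the receptor for macrophage colony-stimulating factor, differed little. Csf1r measured 13.54 and 13.83. Csf2ra and Csf2rb, the chains of the GM-CSF receptor, differed by -2.27 and -1.55, and Il6ra by -1.86, while Csf3r, the G-CSF receptor, measured 10.52 and 9.13. Of 16 receptors 6 were lower (37.5%, against 11.7% of all genes) and 2 higher (12.5%, against 22.3%), Epor and Tgfbr2 (1.11).

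Classical monocyte genes were lower in 9 of 14 measured members and higher in none, with a median of -1.74, against 11.7% and 0.11 over all genes. F13a1, coagulation factor XIII A, measured 12.14 and 7.58, the calcium-binding protein genes S100a4 and S100a6 13.29 and 9.38, and 12.35 and 9.11. The lysozyme gene Lyz2 measured 14.23 and 12.99, still bright in macrophages. S100a8, S100a9 and Hp, which neutrophils share, differed by less than 2-fold (-0.43, -0.90 and -0.44). Nonclassical monocyte genes were split, 5 lower and 4 higher of 14, with Ace, the angiotensin-converting enzyme, at -2.62 and Nr4a1, a nuclear receptor that nonclassical monocytes need, at -1.82.

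Coagulation genes of monocytes followed F13a1 in part. Thbd, thrombomodulin, measured 9.68 and 5.99 and the urokinase receptor gene Plaur 11.46 and 9.52. Procr, the protein C receptor, measured 7.89 and 7.49 and was nearly as bright in macrophages as in Spic-positive monocytes. Of 9 genes above the floor 4 were lower and 1, Serpinb2 (at least 2.58-fold), higher.

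Matrix proteases and their inhibitors differed in both directions. Mmp13, collagenase 3, measured 2.87 and 8.44, at least 10.7-fold higher in macrophages, and Adamdec1, a disintegrin protease of macrophages, 7.86 and 12.18. Mmp9 differed by 1.36, Mmp2 by 1.08 (at least 1.92-fold) and Mmp8, the neutrophil collagenase, by -2.42. Of 17 bright enough members 8 were higher, or 6 with levels under the floor raised to it, and 3 (Mmp14, Mmp8 and Adam15, the last with another probe set at 0.31) lower.

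Adhesion genes were also divided. Itga9, an integrin chain that pairs with beta 1 and binds VCAM-1, measured 6.59 and 9.91, and Itga4, another alpha chain that binds VCAM-1, 12.28 and 9.23. Itgal, the LFA-1 alpha chain, differed by -2.07 and Pecam1 by 2.02.

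Of 31 transcription factor genes above the floor, 20 were under 2-fold, 4 were higher and 7 lower. That was 12.9% higher and 22.6% lower, against 22.3% and 11.7% of all genes. Beside Spic, the higher ones were Egr1 (1.45), Mitf (1.10) and Irf8 (1.09). Spi1, which encodes PU.1, differed by -0.70 and Spib, the third factor of the PU.1 subfamily, by -0.99. Cebpa, a factor of granulocyte and monocyte development, measured 9.51 and 6.99. Nfil3, Runx3, Id3 and Bcl6 differed by -1.94, -1.48, -1.21 and -1.14.

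Pattern recognition and Fc receptor genes differed in both directions. Tlr4, the receptor for lipopolysaccharide, measured 5.84 and 9.13, and Tlr3, for double-stranded RNA, 4.65 and 7.56 (at least 5.80-fold higher). Nlrp3 and Aim2, which start inflammasomes, differed by -1.66 and -2.36, and Cd14 by 0.27. Among Fc receptors the inhibitory receptor gene Fcgr2b measured 12.67 and 9.52, while the activating receptor genes Fcgr1 and Fcgr4 differed by 2.13 and 2.79 and Fcgrt, the recycling receptor for IgG, by 3.46. Pyrin, an inflammasome sensor encoded by Mefv, measured 10.93 and 6.87.

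Lysosome and energy genes differed little. Of 26 lysosome genes above the floor 4 were higher, 1 was lower and 21 were under 2-fold. That was 15.4% higher and 3.8% lower, against 22.3% and 11.7% of all genes. Among the higher ones were the cathepsin genes Ctsd, at 9.88 and 12.60, and Ctsl (1.51). For oxidative phosphorylation the median was 0.31, with 6 of 25 genes higher (24%, near the 22.3% of all genes) and none lower. Glycolysis genes had a median of 0.48 and ribosomal protein genes a median of -0.03. Immediate early and heat shock genes, which are known to respond to cell handling, had a median of 0.05 with 17 of 23 under 2-fold.

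Above the floor on both arrays, the 15 largest differences upwards under the rule for naming genes were led by Cd5l (7.21) and Ighg3 (6.93), the constant region of IgG3. Next came Clec1b, the podoplanin receptor CLEC-2 (6.33), the elastase family gene Cela1 (6.30) and Fcna. The surface glycoprotein gene Mpzl1, the lipoprotein lipase inhibitor gene Angptl4 and the prion protein gene Prnp differed by 5.58, 5.57 and 5.54. Stab2, Mrc1, Igf1, Alas2 and Il10 followed, with the adenosine deaminase gene Ada (5.33) and the protease inhibitor gene Serpinb6a (5.26). Angptl4 measured 6.46 in the Spic-positive cells and 12.03 in macrophages, and its other probe set differed by 5.32.

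Downwards on both arrays, Ccr2 led (-5.03), followed by the Rac activator gene Tiam1 (-4.63), Ly6i (-4.59), F13a1, Ciita and Mefv. S100a4 and the early endosome GTPase gene Rab5c (-3.74) came next, then Thbd, Ifngr2 and the lysolipid-responsive receptor gene Gpr132 (-3.60). The heparanase gene Hpse differed by -3.47, the zinc finger gene Zfp800 by -3.43, Cd93 by -3.41 and Cx3cr1 by -3.39. The probe sets of Zfp800 ranged from -3.56 to -0.28. Ly6i had levels of 8.40 without Spic, 10.90 in the Spic-positive cells and 6.31 in macrophages.

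The 10 brightest macrophage genes that were under the floor in Spic-positive monocytes were Car2, a carbonic anhydrase that erythroid cells also express (12.08 in macrophages), Xist, the collagen gene Col14a1 (11.59), Cd163, Slc4a1 and C6, then Pcolce2, a helper of collagen maturation (10.89), the membrane transporter gene Slc45a3 (10.79), the hydrolase gene Cmbl (10.65) and Mrap, a melanocortin receptor accessory protein (10.51). The reverse set held Ifi44l (10.22 in Spic-positive monocytes and 3.27 in macrophages), the lysophospholipase D gene Gdpd3 (10.12 and 4.57), Eif2s3y, Mmp14 and Ifi202b (8.98 and 3.28). It ended with Slfn1 (8.44), the syntaxin-binding protein gene Stxbp6 (8.40), the RNA-binding protein gene Celf4 (8.38), Oas3 and the cullin gene Cul5 (7.93).

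Sex-linked transcripts differed between the arrays. Xist, which coats the inactive X chromosome, measured 4.63, 4.70 and 11.95 in Spic-negative monocytes, Spic-positive monocytes and macrophages, and the Y-linked genes Eif2s3y and Kdm5d 10.10, 9.56 and 3.31, and 7.25, 6.49 and 2.52. Both monocyte arrays were thus low in Xist and the macrophage array low in Y-linked transcripts. Differences of sex or animal therefore cannot be told apart from those of cell type. With X-linked and Y-linked genes left out, 2639 genes were at least 2-fold higher and 1377 lower. That count keeps any sex or animal differences of the other genes.

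Markers of cytotoxic, T and plasma cells were in part brighter on the macrophage array. At least 2-fold higher were 72.7%, 58.3% and 55.6% of their members compared, in that order, against 22.3% of all genes. Of 12 measured markers of NK and cytotoxic cells 8 were at least 2-fold higher, or 6 with levels under the floor raised to it, and none lower, with the granzyme gene Gzma under the floor in Spic-positive monocytes and at 9.24 in macrophages (at least 18.7-fold) and Klrd1 at 5.36 and 8.68. The list's summed level was 2297 against 497 in Spic-positive monocytes. T cell markers were higher in 7 of 14 measured members, or 6 with the floor so applied, among them Cd28 (at least 4.85-fold) and Il7r (2.39), while Cd3e and Cd4 differed by -0.41 and -0.03. Plasma cell markers were higher in 5 of 9, with Mzb1 at 8.72 and 12.09, beside Ighg3 and Ighm, the IgM heavy chain, at 12.97 and 14.49.

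Of 12 measured markers of basophils, mast cells and eosinophils 3 were higher, Ccr3, Prg2 (at least 14.6-fold) and Mcpt8 (at least 7.95-fold). All 3 lay under the floor in Spic-positive monocytes. On both arrays 7 of the list lay under it, the mast cell and basophil receptor genes Fcer1a and Ms4a2 among them. Of 11 measured platelet markers 5 were higher and 1 lower, or none lower with levels under the floor raised to it. Clec1b, Ppbp (at least 18.5-fold), Pf4 and Vwf (3.25) were higher, whereas Itga2b and Gp9 differed by 0.44 and -0.13. Itgb3 (1.49) was higher too, with another probe set at -0.44, and Gp1bb (at least 1.92-fold) was lower, with another at 2.45. Of 17 measured endothelial and stromal markers 4 were higher, or 3 with the floor so applied, and 2 lower. The 4 and 2 were 30.8% and 15.4% of the 13 compared, against 22.3% and 11.7% of all genes. Stab2 (5.47), Pecam1 (2.02) and Lyve1 (at least 1.94-fold) were among the higher ones, and Cdh5 differed by 0.55. Of 12 neutrophil markers compared 4 were lower (33.3%) and 2, Ltf (10.38 and 12.18) and Mmp9, higher (16.7%). Mpo differed by -0.98 and the granule genes Ngp and Camp by 0.25 and 0.19. The neutrophil median was -0.89, or -0.66 with levels under the floor raised to it. Of 10 dendritic cell markers compared 4 were lower (40%), among them Dpp4 (-2.37), and 1, Zbtb46 (1.25), higher (10%), with a median of -0.63. Plasmacytoid dendritic cell markers had a median of 0.52, or 0.17 with levels under the floor raised to it, with Ccr9 past 2-fold. The part of these cells in the other differences was not tested.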

How the data were processed

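The authors deposited 1 log2 level for each probe set, which the submitters' processing notes credit to RMA, a method that subtracts background, equalizes array distributions and combines probes. Its version was not stated, and the log2 scale was read from the values (1.82 to 14.50). RNA was amplified over 2 cycles per the labels' protocols, which shortens cRNA. Array medians were 5.08 for Spic-positive monocytes and 4.96 for macrophages. RMA hides differences in total RNA per cell.

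Of 45037 probe sets other than 64 controls, 34945 had 1 gene symbol in the platform annotation, 932 several and 9160 none. Symbols were updated by gene identifier for 34741, through the GRCm38.p6 gene table. The 47 gene lists held 724 genes, 651 with a probe set. Genes named are the 15 largest differences in each direction with both arrays above the floor, the 10 brightest in each direction with 1 array below it (probe sets agreeing in direction, at most 2 per family of immunoglobulin, globin, H2, Ifi, Gbp, Stfa and Ly6 genes, clone names skipped), and members of the lists. The genes and lists were chosen with earlier results of these data known.

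The number of arrays limits the precision, and no test was run. Alternatives covered probe set choice, normalization, floor and sex chromosomes. R 4.3.3 with limma 3.58.1, and Python 3.11.15 with matplotlib 3.10.9, pandas 2.3.3 and numpy 2.4.6, were used, and the counting was tested on simulated data.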

Additional observations from a re-analysis of the deposited data

Results flagged for a closer look

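Probe sets outside the gene comparison also carried differences between the arrays. Of 3245 probe sets above the floor with no gene symbol, 157 (4.84%) were at least 4-fold higher in red pulp macrophages and 151 (4.65%) at least 4-fold lower, against 7.32% and 2.06% of named genes. At 2-fold 443 were higher and 761 lower, while more named genes were higher (2722) than lower (1425). Of 615 bright probe sets naming several genes, 39 (6.34%) exceeded 4-fold upwards and 16 (2.6%) downwards. On the third array, that of Spic-negative monocytes, 168 genes exceeded the floor while lying under it on both arrays compared, 2 of them at least 4-fold above both. These stand apart because the comparison of named genes does not use them.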

How the results depend on the processing

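With 1 array a group, replicate error is unknown and no replicate could be left out. No paired analysis was possible because each group had 1 array. Over 12 alternatives, the counts of genes past 2-fold and 4-fold stayed within 1.5 times the values reported except in a pair of cases: 895 genes were at least 2-fold lower with the floor at the 75th percentile, and 564 at least 4-fold higher with both arrays above the floor, each of which compares fewer genes. The median difference of all genes, 0.11, was 0.25 with arrays centred on their medians and -0.03 after another quantile normalization. It was -0.09 with no floor and 0.32 with the floor at the 75th percentile. With centred arrays 3086 genes were at least 2-fold higher and 1106 lower, and after another quantile normalization 2285 and 1749. Of 207 genes named in the text and past 2-fold, 16 fell under it in at least 1 alternative and 2 turned: Lrp1 was 0.30 with the mean or median of its probe sets, and Srxn1 was -0.24 without probe sets of shared or cross-hybridizing sequence. Mitf was 0.16 and Irf8 0.62 with the mean of the probe sets. Of 47 list medians 8 changed sign, among them iron storage and sensing (0.01 with centred arrays) and the NRF2 and BACH1 pathway (0.08 with mean probe sets). The cause was not tested. Levels near the floor limit what can be read.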
